A study of Homo sapiens with 16 samples.

Results

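The 10 genes described here encode growth factor receptors and their ligands: the ERBB receptors EGFR, ERBB2, ERBB3 and ERBB4, the fibroblast growth factor (FGF) receptors FGFR1, FGFR2 and FGFR3, and the EGF-family ligands HBEGF, AREG and TGFA. They were picked by gene name in the GENCODE 29 annotation, out of 28028 genes with counts, as possible sources of the differences in MAPK output between the groups. By GENCODE 29 (GRCh38) FGFR1 lies on chromosome 8 and the others at chr7:55019021-55211628 (EGFR), chr17:39687914-39730426 (ERBB2), chr12:56076799-56103505 (ERBB3), chr2:211375717-212538841 (ERBB4), chr10:121478334-121598458 (FGFR2), chr4:1793293-1808872 (FGFR3), chr5:140332843-140346631 (HBEGF), chr4:74445134-74455009 (AREG) and chr2:70447280-70554193 (TGFA), with ERBB4, FGFR1, FGFR2, HBEGF and TGFA on the minus strand. All 10 were among the 16787 genes that passed the low-count filter and were tested. RNA was sequenced from cells of HEK293, an established human embryonic kidney line, that overexpressed a green fluorescent protein (GFP) control, wild-type RNF43 (WT), or RNF43 with the frameshift R117fs or G659fs, with 4 libraries in each group and 16 in all. RNF43 is a membrane ubiquitin ligase known for clearing Frizzled, the Wnt receptor, from the surface of cells. Every group was the same line with an overexpressed gene. How the genes were delivered, how long they were expressed and whether any line was 1 clone is not given in the sources used here. Nor is it given whether the replicates were separate cultures, so the p-values speak only for the spread among these libraries, some or all of which may be technical.

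ERBB and FGF receptors are tyrosine kinases at the cell surface. A ligand joins receptors into pairs, the kinases phosphorylate each other's tails, and adaptors such as GRB2, SHC1 and FRS2 pass the signal to RAS, RAF, MEK and ERK, whose output includes the transcription factors EGR1, ETV4 and ETV5 and the inhibitors SPRY4 and DUSP6. ERBB2 has no known ligand of its own and ERBB3 a weak kinase, so both work mainly as partners in a pair. HBEGF, AREG and TGFA are made as membrane proteins that ADAM proteases release, and FGF receptors come in splice forms that differ in ligand preference.

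RNF43 was at 13.1 to 50.3 CPM (counts scaled to library size) in the GFP libraries and at 30191 to 94569 CPM in the libraries of the 3 RNF43 constructs, as the labels have it. Total estimated counts per library were 20364357 to 46779570. R117fs replicate 4 stood apart: the SD of its genes' log2 deviations from the group mean was 0.578, where no other library passed 0.409, and these deviations rose with GC content (Spearman's rho 0.789 across genes, not over replicates). Of 7 markers named for HEK293 cells, all were tested; LHX1 was as low as 2 counts in a library, and NEFM was higher in all 3 constructs than in GFP. Of 10 markers of other cell types, PTPRC, CD3E, HBB and KRT5 had 0 to 6 counts per library, but CDX2 (19.0 to 32.9 CPM) and COL1A1 (31.3 to 63.0 CPM), listed as absent, were expressed. CDX2 was higher in all 3 constructs than in GFP, and its part in the results below was not tested.

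Levels are compared between genes as TPM, the deposited measure that divides reads by transcript length and library total. TPM do not carry the TMM scaling of libraries that CPM have, so TPM differences between groups can also hold differences in scaling. In the GFP libraries FGFR1 had the highest level, 49.0 ± 3.11 TPM (SD, n = 4), above the level of 86.7% of genes with a TPM over 0. ERBB2 (29.3 ± 1.82 TPM) and FGFR3 (26.2 ± 1.09 TPM) came next, and their ranges overlapped. FGFR2 stood alone at 11.8 ± 0.723 TPM. ERBB3 (5.96 ± 0.834 TPM) and HBEGF (5.78 ± 1.09 TPM) overlapped, and EGFR followed at 3.94 ± 0.321 TPM. TGFA (1.12 ± 0.311 TPM) and ERBB4 (0.987 ± 0.113 TPM) overlapped, with AREG lowest at 0.675 ± 0.0358 TPM. The ligands were thus at or below the middle of the list, and FGFR1, ERBB2, FGFR3 and FGFR2 kept the top 4 places in this order in all 4 groups. In the WT libraries ERBB3 moved below HBEGF and EGFR, to 3.45 ± 0.254 TPM, and AREG, at 1.37 ± 0.191 TPM, moved above ERBB4 and overlapped TGFA.

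**Figure D1:**
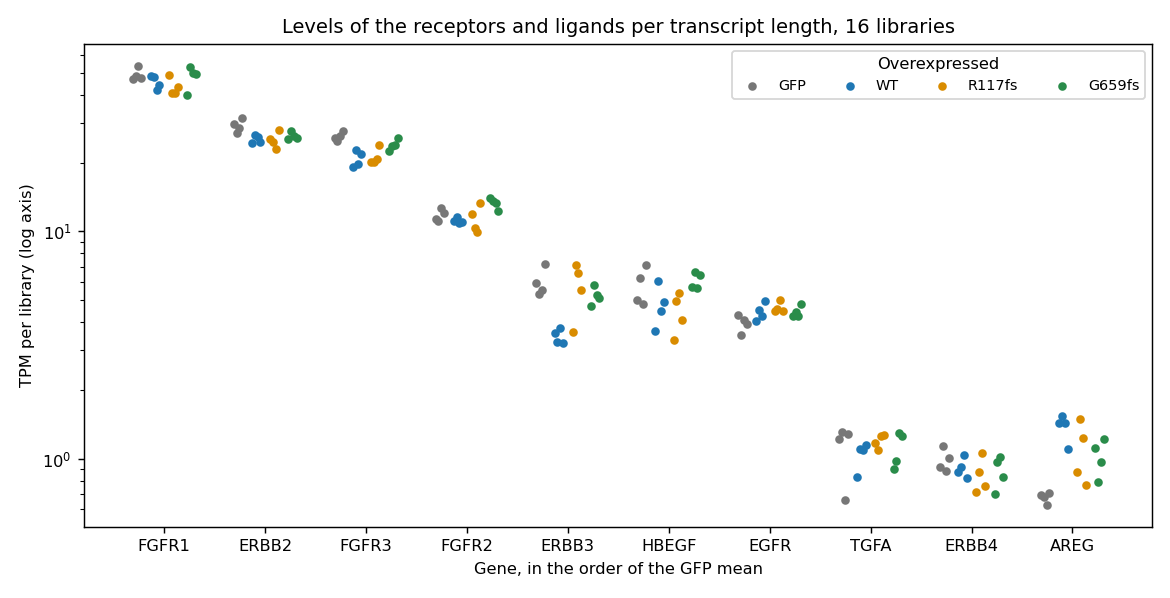
TPM of the 10 genes in each of the 16 libraries on a log axis, coloured by the overexpressed gene, with the genes ordered by their GFP mean. FGFR1 is highest and TGFA, ERBB4 and AREG are lowest in every group.

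Differences between groups were tested on counts with edgeR's quasi-likelihood test, with Benjamini-Hochberg adjustment over all 16787 genes, and a gene was called at an adjusted p under 0.05. In such bulk RNA a change in all cells and a change in some of the cells cannot be told apart. The 3 comparisons with GFP share the GFP libraries. WT against GFP called 3 of the 10 genes (EGFR and AREG higher, ERBB3 lower), where 21.5% of all tested genes were called. R117fs against GFP called 3 (EGFR and AREG higher, FGFR3 lower), against 15.6% of all genes. G659fs against GFP called 3 (EGFR, FGFR1 and FGFR2, all higher), against 25.4% of all genes. With 10 genes, 3 calls are close to these shares and say nothing particular about the receptors and ligands. The median log2 difference of the 10 genes was 0.059, -0.0014 and 0.19 for WT, R117fs and G659fs, beside 0.0010, -0.0088 and 3.0e-05 over all tested genes. Between constructs, R117fs against WT called ERBB3 alone (8.11% of all genes were called), G659fs against WT called ERBB3 alone (5.68%), and G659fs against R117fs called FGFR1, FGFR2 and FGFR3 (14.4%). Only ERBB2, ERBB4, HBEGF and TGFA were called in none of these 6 comparisons.

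**Figure D2:**
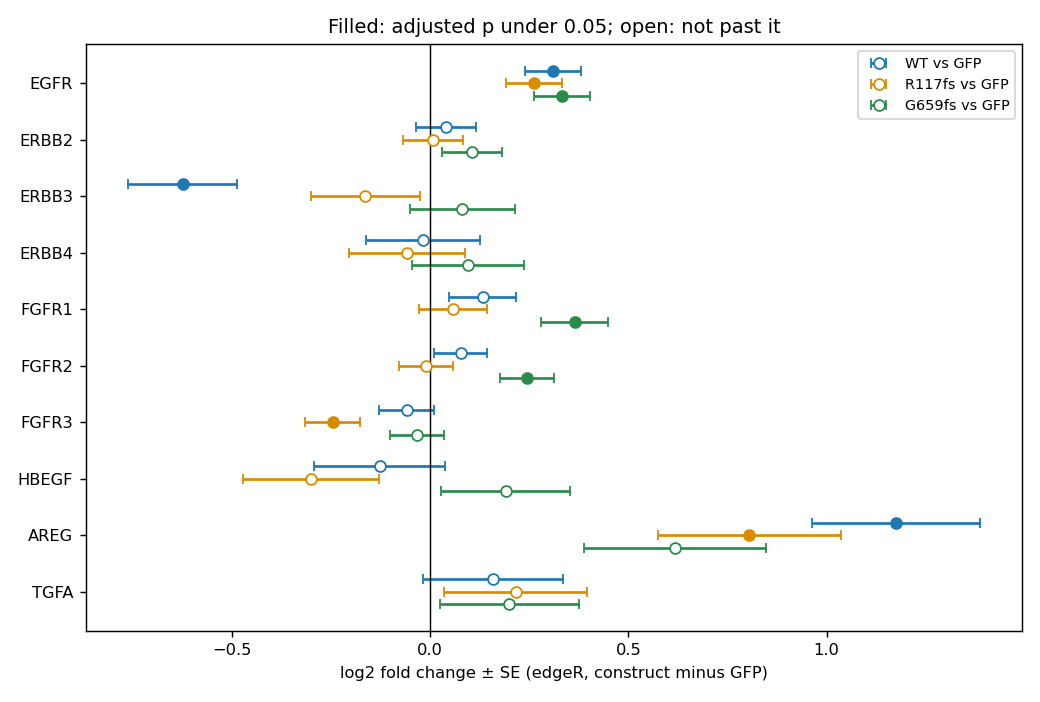
Log2 fold change of each gene in WT, R117fs and G659fs against GFP, with its standard error; filled points have an adjusted p under 0.05. EGFR is filled in all 3 comparisons and lies between 0.26 and 0.33, while AREG has the highest differences and ERBB3 in WT the lowest.

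EGFR, the receptor for AREG, TGFA and HBEGF, rose in counts in all 3 constructs by about the same amount. Its CPM were 23.0, 20.9, 24.1 and 22.01 in the GFP libraries (replicates 1 to 4) and 26.3, 28.2, 27.2 and 29.9 in WT. They were 27.9, 28.5, 27.2 and 24.1 in R117fs and 28.1, 27.3, 28.1 and 30.1 in G659fs. In CPM all 12 libraries of the constructs lay above all 4 GFP libraries, with R117fs replicate 4 only just above the highest of them. In TPM, WT (4.03 to 4.96) and G659fs (4.24 to 4.78) overlapped GFP (3.51 to 4.27), while R117fs (4.46 to 5.01) did not. The log2 difference from GFP was 0.31 ± 0.070 (SE) in WT (1.24-fold, edgeR adjusted p = 0.00451), 0.26 ± 0.071 in R117fs (1.20-fold, adjusted p = 0.0187) and 0.33 ± 0.070 in G659fs (1.26-fold, adjusted p = 0.00231). No pair of constructs passed the test: R117fs minus WT was -0.048 ± 0.070, G659fs minus WT 0.023 ± 0.069 and G659fs minus R117fs 0.071 ± 0.070 (edgeR adjusted p = 0.694, 0.887 and 0.536). The R117fs call was lost without GFP replicate 2 (adjusted p = 0.0715) or GFP replicate 4 (adjusted p = 0.0615), and when R117fs and GFP were fitted alone (adjusted p = 0.141).

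The promoter of EGFR and that of AREG, the other gene called in more than 1 construct against GFP, are shown because both genes rose in WT and R117fs. The sequences are the 250 bases before the start site in RefSeq (GRCh38.p14), 5′ to 3′, at chr7:55018767-55019016 on the plus strand for EGFR and chr4:74444886-74445135 on the plus strand for AREG. Capitals mark every match to any of 5 motifs searched on both strands: the cyclic AMP response element (CRE) TGACGTCA, the AP-1 site TGANTCA, the TATA box TATAAA, the EGR site GCGNGGGCG and the GC box GGGCGG.
EGFR: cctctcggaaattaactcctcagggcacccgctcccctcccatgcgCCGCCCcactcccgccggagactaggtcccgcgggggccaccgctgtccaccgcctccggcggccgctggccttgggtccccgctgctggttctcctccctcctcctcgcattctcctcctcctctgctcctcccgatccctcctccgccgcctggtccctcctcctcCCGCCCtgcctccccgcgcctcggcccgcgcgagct
AREG: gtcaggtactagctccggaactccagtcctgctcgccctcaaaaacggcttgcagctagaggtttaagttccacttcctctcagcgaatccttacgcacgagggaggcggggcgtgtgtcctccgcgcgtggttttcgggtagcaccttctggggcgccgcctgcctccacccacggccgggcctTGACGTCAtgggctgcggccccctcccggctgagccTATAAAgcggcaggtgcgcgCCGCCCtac
RefSeq lists another EGFR start site inside the gene, not shown, whose window held the AP-1 site and the TATA box and no GC box. The EGFR stretch shown is 73.6% G and C and held the GC box at 2 places, both as CCGCCC, its reverse complement, whose first base lies 204 and 36 bases before the start site, and none of the other 4 motifs. AREG held a CRE beginning 65 bases, a TATA box 29 bases and a GC box, again as CCGCCC, 9 bases before its start site. Among 35116 RefSeq promoter windows of the same length, 1.65% held the CRE, 6.57% the AP-1 site, 10.7% the TATA box, 8.41% the EGR site and 42.6% the GC box. Of the 10 genes 8 had promoters in this table, and AREG was the only one of the 8 with a CRE. A match is a run of letters and does not show that a factor binds there.

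ERBB2, the most abundant of the ERBB receptors, had no called difference in counts. GFP libraries ranged from 69.2 to 76.0 CPM, WT from 73.2 to 76.8, R117fs from 63.9 to 85.5 and G659fs from 77.2 to 79.0. The G659fs libraries all lay above the GFP libraries, yet the difference of 0.11 ± 0.075 did not pass the test (edgeR adjusted p = 0.331). In R117fs the highest library was replicate 4 and the lowest replicate 2, and their spread covered that of every other group. The difference from GFP was 0.041 ± 0.075 in WT and 0.0082 ± 0.076 in R117fs (edgeR adjusted p = 0.742 and 0.959). In TPM, ERBB2 was lower in WT (24.4 to 26.5 TPM) than in GFP (27.1 to 31.4 TPM), with no overlap. R117fs and G659fs overlapped GFP in TPM. The mean effective length of ERBB2 was 3450 bases in GFP and 3706 bases in WT. HBEGF, with nearly the same effective length in both (2171 and 2175 bases), had means of 9.03 and 8.20 CPM but 5.78 and 4.75 TPM. How much of the ERBB2 difference in TPM lies in library scaling or in length was not tested.

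ERBB3, a neuregulin receptor that signals through its partners, fell in WT and in no other group against GFP. Its CPM were 11.6, 15.7, 12.01 and 15.05 in GFP and 6.72, 9.87, 8.92 and 9.66 in WT, so the highest WT library lay below the lowest GFP library. In R117fs they were 9.74, 11.9, 13.4 and 14.1, and in G659fs 13.8, 14.4, 16.02 and 13.04, both overlapping GFP. WT differed from GFP by -0.62 ± 0.14 on the log2 scale (1.54-fold lower, edgeR adjusted p = 0.00360). The differences were -0.16 ± 0.14 in R117fs and 0.081 ± 0.13 in G659fs (edgeR adjusted p = 0.456 and 0.696). Tested directly, ERBB3 was higher in G659fs than in WT by 0.71 ± 0.13 (edgeR adjusted p = 0.00907), with no overlap of the libraries, and this call was lost without G659fs replicate 3 (0.65, adjusted p = 0.0512) or with effective lengths as an offset (0.57, adjusted p = 0.0595). It was also higher in R117fs than in WT by 0.46 ± 0.14 (edgeR adjusted p = 0.0482), but R117fs replicate 1 lay inside the WT range and the call was lost when any of 13 of the 16 libraries was left out (adjusted p 0.0526 to 0.130), R117fs replicate 4 among them, or when the 2 groups were fitted alone (adjusted p = 0.164).

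ERBB4, another neuregulin receptor, was at 4.11 to 7.04 CPM over all 16 libraries, with 80 to 265 counts. The 4 groups overlapped, and the differences from GFP were -0.018 ± 0.14 in WT, -0.059 ± 0.15 in R117fs and 0.096 ± 0.14 in G659fs (edgeR adjusted p = 0.944, 0.831 and 0.665). At this depth its estimates could not be split into its forms: transcript ERBB4-202 took between 8.3e-06% and 99.6% of the gene's counts in single libraries.

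**Figure D3:**
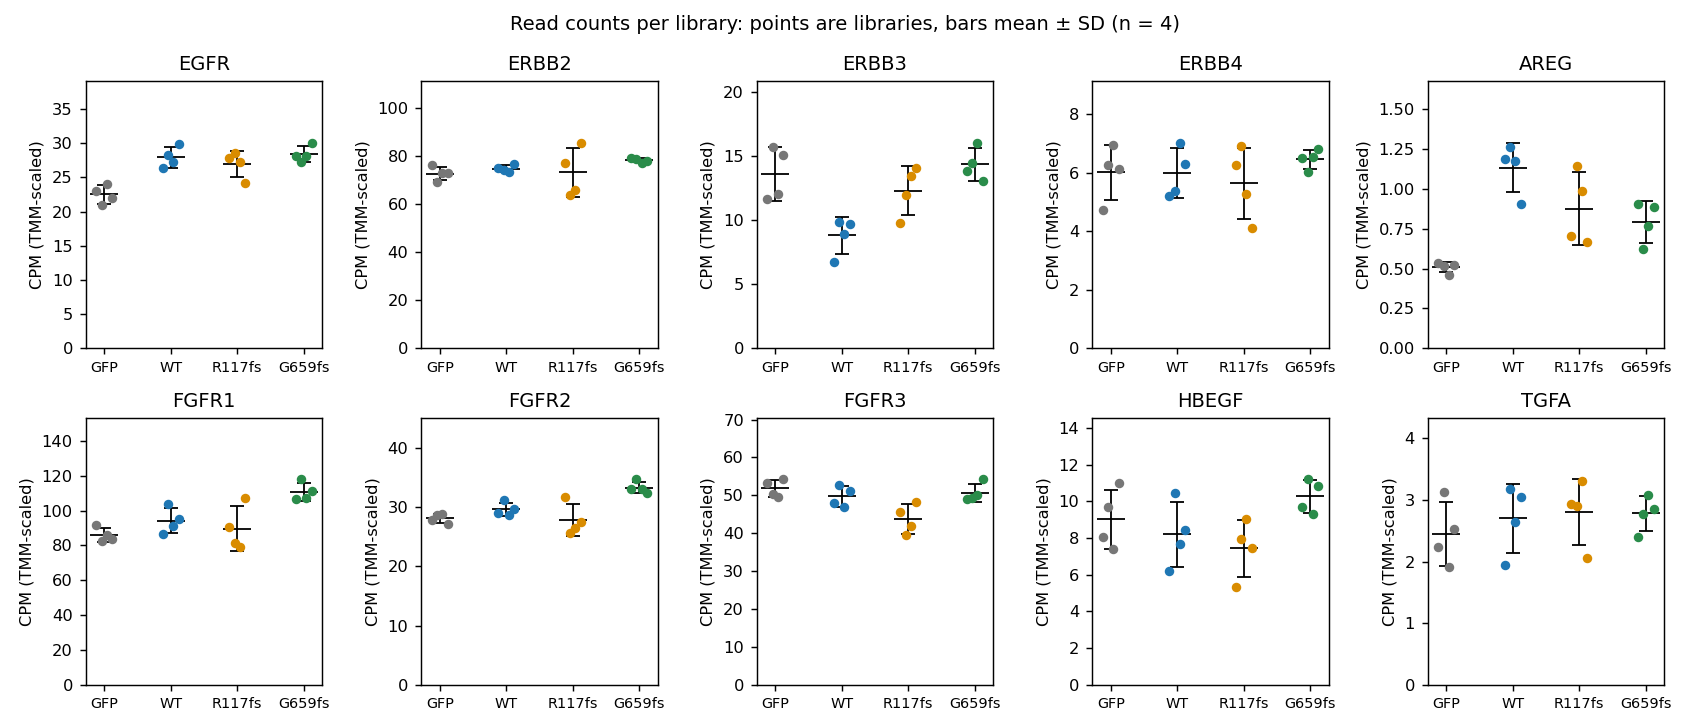
CPM of each of the 10 genes in the 4 libraries of each group, with the mean and SD. The ERBB3 points of WT lie below those of GFP, the EGFR points of all 3 constructs lie above those of GFP, and the FGFR1 and FGFR2 points of G659fs lie above those of GFP.

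Among the ligands AREG, amphiregulin, changed most, from a very low level. It had 14, 14, 15 and 14 counts in the GFP libraries, 41, 56, 40 and 28 in WT, 28, 43, 19 and 13 in R117fs and 26, 27, 31 and 26 in G659fs. As CPM these were 0.532, 0.515, 0.461 and 0.521 in GFP, 1.19, 1.26, 1.18 and 0.907 in WT, 0.703, 1.15, 0.984 and 0.668 in R117fs and 0.906, 0.620, 0.765 and 0.885 in G659fs. Every construct library lay above every GFP library, although the precision is limited by the few reads. AREG rose by 1.18 ± 0.21 on the log2 scale in WT (2.26-fold, edgeR adjusted p = 0.000843) and by 0.81 ± 0.23 in R117fs (1.75-fold, adjusted p = 0.0253). In G659fs the difference was 0.62 ± 0.23 (1.53-fold) and missed the threshold (edgeR adjusted p = 0.0561). The WT call held in every alternative tried, whereas the R117fs call was lost without R117fs replicate 2 (0.60, adjusted p = 0.101) and without GFP replicate 2, 3 or 4 (adjusted p 0.0557 to 0.0735). It was also lost when R117fs and GFP were fitted alone (adjusted p = 0.0976) and with effective lengths as an offset (adjusted p = 0.0546). The constructs were not shown to differ: G659fs against WT gave -0.56 ± 0.18 (edgeR adjusted p = 0.0746) and R117fs against WT -0.37 ± 0.19 (adjusted p = 0.216).

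HBEGF, heparin-binding EGF-like growth factor, was the most abundant of the 3 ligands per length. GFP libraries ranged from 7.40 to 10.99 CPM, WT from 6.23 to 10.5, R117fs from 5.32 to 9.02 and G659fs from 9.31 to 11.2. Every group overlapped GFP, and the differences were -0.13 ± 0.16, -0.30 ± 0.17 and 0.19 ± 0.16 (edgeR adjusted p = 0.625, 0.253 and 0.424) in WT, R117fs and G659fs. The G659fs libraries lay above all R117fs libraries, a difference of 0.49 ± 0.17 that missed the threshold (edgeR adjusted p = 0.0564) and passed it with DESeq2 (adjusted p = 0.0417). TGFA, transforming growth factor alpha, was at 1.91 to 3.32 CPM over all libraries, with 40 to 141 counts. Its differences from GFP were 0.16 ± 0.18, 0.22 ± 0.18 and 0.20 ± 0.18 (edgeR adjusted p = 0.561, 0.458 and 0.439) in WT, R117fs and G659fs, and the groups overlapped.

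FGFR1, the most abundant of the 10 genes, had more reads in G659fs. Its CPM were 91.7, 82.8, 85.8 and 83.7 in GFP and 106.7, 117.9, 107.1 and 111.1 in G659fs, with no overlap between these groups. They were 86.6, 103.7, 91.2 and 95.5 in WT and 90.8, 81.2, 79.2 and 107.3 in R117fs, where replicate 4 was highest. G659fs differed from GFP by 0.36 ± 0.085 (1.29-fold, edgeR adjusted p = 0.00454) and, with overlapping libraries, from R117fs by 0.31 ± 0.085 (adjusted p = 0.0221), while WT and R117fs differed from GFP by 0.13 ± 0.085 and 0.058 ± 0.085 (adjusted p = 0.287 and 0.698). The change was in read counts and not in TPM: FGFR1 was at 49.0 ± 3.11 TPM in GFP and 48.1 ± 5.61 TPM in G659fs. The effective length that the abundance estimates assign to FGFR1 was 2441 ± 173 bases in GFP and 3002 ± 265 bases in G659fs (SD, n = 4), and with effective lengths as an offset the difference was 0.073 (edgeR adjusted p = 0.613). Counts and TPM thus give different answers for this gene, and the source of the longer effective length in G659fs was not tested.

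FGFR2 showed a like pattern at a lower level. Its CPM were 27.8, 28.6, 28.8 and 27.2 in GFP, 29.02, 31.2, 28.7 and 29.6 in WT, 31.8, 25.6, 26.5 and 27.5 in R117fs and 33.1, 34.7, 33.1 and 32.3 in G659fs. The G659fs libraries lay above all 12 others. The difference from GFP was 0.24 ± 0.068 (1.18-fold, edgeR adjusted p = 0.0134) and from R117fs 0.26 ± 0.068 (adjusted p = 0.0180). With effective lengths as an offset the difference from GFP was of the same size and just missed the threshold (0.27, edgeR adjusted p = 0.0565). WT and R117fs differed from GFP by 0.077 ± 0.068 and -0.011 ± 0.069 (adjusted p = 0.455 and 0.938).

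FGFR3 went the other way, in R117fs. Its CPM were 53.3, 50.4, 49.6 and 54.2 in GFP and 45.6, 39.5, 41.8 and 48.1 in R117fs, with no overlap. They were 48.1, 52.7, 46.9 and 51.3 in WT and 49.0, 49.4, 49.99 and 54.2 in G659fs, both overlapping GFP. R117fs differed from GFP by -0.25 ± 0.070 (1.19-fold lower, edgeR adjusted p = 0.0238) and WT and G659fs by -0.059 ± 0.069 and -0.033 ± 0.069 (adjusted p = 0.584 and 0.762). The R117fs call was lost without GFP replicate 4 or R117fs replicate 2 or 3 (adjusted p 0.0525 to 0.0697) with effective lengths as an offset (-0.19, adjusted p = 0.183), without a low-count filter (adjusted p = 0.0578), and when R117fs and GFP were fitted alone (adjusted p = 0.151). In TPM, FGFR3 was also lower in WT (19.3 to 22.8 TPM) than in GFP (25.0 to 27.6 TPM), with no overlap, and its mean there, 21.0 TPM, was close to that of R117fs, 21.3 TPM. With effective lengths as an offset WT minus GFP was -0.18 and did not pass the test (edgeR adjusted p = 0.160). The mean effective length of FGFR3 was 2748 bases in GFP and 2996 bases in WT. Counts and TPM thus differ for FGFR3 too, and the parts of length and of library scaling in this were not tested. FGFR3 was higher in G659fs than in R117fs by 0.21 ± 0.070 (edgeR adjusted p = 0.0484), a call that was lost in 14 of the 16 fits that left out 1 library. All 3 calls of G659fs against R117fs were lost when these 2 groups were fitted alone (adjusted p 0.132 to 0.215) or with effective lengths as an offset (adjusted p 0.171 to 0.383). These fits called 4.86% and 10.3% of all genes, where the main fit called 14.4%.

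FGF receptors are spliced to include 1 of a pair of exons, IIIb or IIIc, which encode the end of the third immunoglobulin-like domain and set the ligand preference; IIIb is typical of epithelial and IIIc of mesenchymal cells. Of 26 FGFR2 transcripts 6 held IIIb alone and 8 IIIc alone. Transcripts with IIIc alone took 59.1% to 95.5% of the FGFR2 counts in every library (median 84.3%). Transcripts with IIIb alone took 3.95%, 1.24%, 6.96% and 3.41% in GFP and 4.00%, 2.23%, 13.6% and 5.38% in WT. They took 8.85%, 8.04%, 1.42% and 28.7% in R117fs and 4.22%, 6.50%, 4.77% and 2.63% in G659fs. The groups overlapped, and the highest share belonged to R117fs replicate 4, the library that stood apart. The mean share minus that of GFP was 2.42 percentage points in WT, 7.86 in R117fs and 0.638 in G659fs (exact two-sided permutation test, p = 0.486, 0.229 and 0.657, adjusted over 9 tests 0.845, 0.686 and 0.845), where 4 libraries against 4 allow a p of 0.0286 at the least. Without R117fs replicate 4 the R117fs difference was 2.21 points.

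For FGFR1, IIIc transcripts took 72.8% to 91.7% of the counts and the 1 transcript with IIIb alone 2.97% to 19.5%. Its share was 12.6% ± 2.79 in GFP, 7.74% ± 3.85 in WT, 10.7% ± 6.54 in R117fs and 7.11% ± 2.02 in G659fs (SD, n = 4; exact permutation test against GFP, adjusted p = 0.386, 0.845 and 0.386). FGFR3 could not be read in this way, because annotated transcripts that carry both exons took 52.2% to 83.2% of its counts. ESRP1, a splicing regulator that favours IIIb in epithelial cells, was at 0.782 to 1.62 CPM in GFP, 3.39 to 5.12 CPM in WT, 2.83 to 3.83 CPM in R117fs and 1.03 to 1.64 CPM in G659fs. It rose by 1.78 ± 0.19 in WT and 1.36 ± 0.20 in R117fs (edgeR adjusted p = 7.98e-06 and 0.000256), with a difference of 0.036 ± 0.23 in G659fs (adjusted p = 0.927). Its relative ESRP2 was at 19.1 to 29.1 CPM over all libraries and passed the test in none of the 3 comparisons with GFP. Over all tested genes 9.85% were higher and 11.6% lower in WT than in GFP, 7.04% and 8.57% in R117fs, and 11.6% and 13.8% in G659fs, and list counts are to be read against these shares. Of 9 splicing regulators of this exon choice, WT had 1 higher and none lower, R117fs 1 higher and 4 lower, HNRNPF (-0.24 ± 0.058) and HNRNPM (-0.25 ± 0.073) among them, and G659fs none called by edgeR, with 2 at an unadjusted p under 0.05 and 1 called by DESeq2. With effective lengths as an offset 3 were lower in G659fs, where 1942 of all 16787 genes were lower.

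A shift between transcripts of ERBB2 was noticed after the values were seen and is given as a description. ERBB2-201 and ERBB2-204 share all 26 later exons and differ in the first, at 39700080 to 39700311 and at 39699560 to 39699587 on chromosome 17 (GRCh38, plus strand). Reads from the shared exons are split between them by estimation, which limits how far the shares can be trusted. ERBB2-201 took 26.8%, 27.1%, 28.0% and 14.5% of the ERBB2 counts in GFP and 46.8%, 44.1%, 56.7% and 48.4% in WT. It took 34.1%, 29.3%, 28.0% and 39.0% in R117fs and 44.6%, 46.6%, 52.7% and 53.0% in G659fs. Its share alone was higher in every WT and G659fs library than in every GFP or R117fs library. ERBB2-206, annotated as subject to nonsense-mediated decay, starts in the same exon as ERBB2-201. The share of ERBB2-206 lay between 5.90% and 23.8% in GFP and between 7.58% and 16.6% in R117fs. It was at most 5.68% in WT and 5.397% in G659fs. The sum of ERBB2-201 and ERBB2-206 was 32.7%, 40.2%, 34.2% and 38.3% in GFP, 52.01%, 46.9%, 61.1% and 54.1% in WT, 50.7%, 36.9%, 38.8% and 50.7% in R117fs and 48.2%, 51.97%, 56.7% and 53.004% in G659fs. By this sum WT and G659fs still lay above all GFP libraries, but R117fs overlapped both. The share of ERBB2-204 was between 29.1% and 38.7% in GFP, 11.2% and 23.6% in WT, 13.5% and 28.8% in R117fs, and 18.5% and 26.1% in G659fs, lower in all constructs than in GFP. The starting exon has 232 bases in ERBB2-201 and 28 bases in ERBB2-204, and the gene's total did not pass the test in any comparison.

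**Figure D4:**
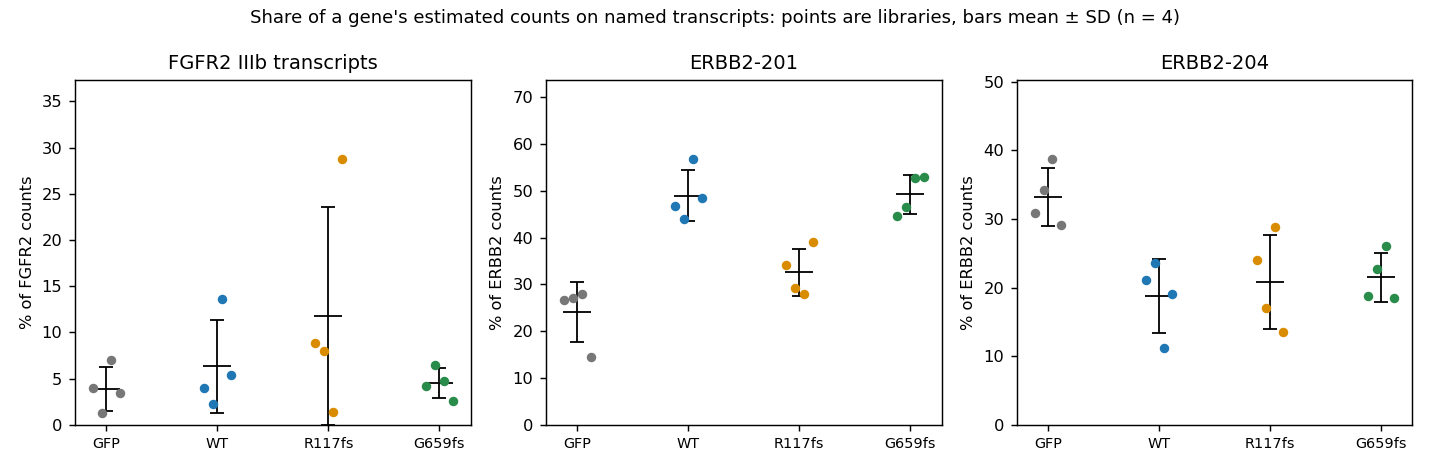
Percent of FGFR2 counts on transcripts with exon IIIb alone, and of ERBB2 counts on ERBB2-201 and ERBB2-204, in each library with the mean and SD. FGFR2 IIIb overlaps between groups with R117fs replicate 4 highest at 28.7%, and ERBB2-201 is higher in WT and G659fs than in GFP.

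The rest of the pathway was followed in lists of its other genes, where 21.5%, 15.6% and 25.4% of all genes were called in WT, R117fs and G659fs. Of the other EGF-family ligands 4 of 8 were tested, and none was called against GFP by edgeR or DESeq2, or had an unadjusted p under 0.05. BTC, EPGN, NRG1 and NRG3 were too low to test. Without R117fs replicate 4, 1 ligand was lower in WT and 1 in G659fs, where 36% and 39.4% of all genes were called. Of 15 tested FGF ligands, WT had 2 higher and 3 lower, R117fs 2 higher and 1 lower, and G659fs 2 higher and 1 lower, counts close to the shares of all genes. FGF21, a hormone-like FGF, was at 4.51 to 6.004 CPM in GFP and rose by 1.22 ± 0.17, 0.82 ± 0.17 and 0.55 ± 0.17 in WT, R117fs and G659fs. FGF22 was at 1.08 to 1.82 CPM in GFP and at 0.206 to 0.668 CPM in all constructs, and fell by 2.27, 1.89 and 1.72 on the log2 scale, from 35 to 48 counts in GFP to 4 to 21 in the constructs. FGFR4 and the other tested FGF receptors and co-receptors, 3 of 4, passed the test in no comparison by edgeR, nor by DESeq2 against GFP, and 1 had an unadjusted p under 0.05 in G659fs against GFP. Without R117fs replicate 4, 2 of them were higher in G659fs than in GFP, where 39.4% of all genes were called. Of 7 tested proteases and regulators of ligand release, RHBDF1, an iRhom that carries ADAM17 to the surface, fell in WT (-0.75 ± 0.11) and G659fs (-0.57 ± 0.11), and ADAM17 itself fell in R117fs (-0.24 ± 0.074).

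Downstream of the receptors, of 16 receptor adaptors, 3 were lower in WT, 4 in R117fs and 4 in G659fs, and none was higher. Of all genes 11.6%, 8.57% and 13.8% were lower, so these few calls show nothing particular to the list. SOS2, an exchange factor that loads RAS with GTP, fell in all 3 (-0.26 ± 0.088, -0.40 ± 0.090 and -0.44 ± 0.089), FRS2, the docking protein of FGF receptors, in WT (-0.37 ± 0.12) and R117fs (-0.46 ± 0.12), and SHC1 in G659fs (-0.37 ± 0.065). Of 13 genes of the RAS to ERK cascade, 4 were lower in WT and 3 in G659fs with none higher, beside the same shares of all genes. In R117fs 3 were lower, NF1 (-0.28 ± 0.078) among them, and 1, MAP2K2, higher (0.47 ± 0.11), beside the same share of all genes. KSR1, a scaffold of the cascade, was at 35.9 to 37.5 CPM in GFP and at 26.8 to 34.3 CPM in the constructs, lower in all 3 (-0.37 ± 0.061, -0.25 ± 0.062 and -0.42 ± 0.062). BRAF, the kinase that phosphorylates MEK, also fell in all 3 (-0.43 ± 0.097, -0.32 ± 0.098 and -0.40 ± 0.097). Median differences of the adaptors were -0.092, -0.040 and -0.023, and of the cascade -0.045, -0.14 and -0.042, in WT, R117fs and G659fs. Without R117fs replicate 4 WT had 5 adaptors lower and 1 higher, in a fit that called 36% of all genes there. With effective lengths as an offset R117fs had no cascade gene lower, where 10.3% of all genes were called.

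Of 12 tested receptor brakes and ubiquitin enzymes, WT had 2 lower, R117fs 2 lower, and G659fs 2 higher and 1 lower, about as often as all genes were called (21.5%, 15.6% and 25.4%). CBL, the ubiquitin ligase that sends active receptors to degradation, fell in WT (-0.36 ± 0.072) and R117fs (-0.27 ± 0.072). ERRFI1, an inhibitor of ERBB kinases, was at 28.0 to 33.7 CPM in GFP and 37.9 to 40.1 CPM in G659fs and rose there by 0.34 ± 0.091 (edgeR adjusted p = 0.0105). Without R117fs replicate 4 WT had 5 brakes lower, and G659fs 3 higher and 4 lower. That fit called 36% of all genes in WT and 39.4% in G659fs. Of 37 other receptor tyrosine kinases, 10 were higher and none lower in G659fs, where 25.4% of all genes were called and 11.6% were higher. In WT 1 was higher and 3 lower, and in R117fs 1 higher and 1 lower, and the difference between constructs was not tested for the list. With effective lengths as an offset G659fs had 5 higher, where 1383 of all 16787 genes were higher. ROS1 rose in all 3, by 2.01 ± 0.21, 0.98 ± 0.25 and 2.43 ± 0.20, from 0.335 to 0.645 CPM in GFP, and NTRK2 (0.63 ± 0.15) and RET (0.56 ± 0.13) rose in G659fs.

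At the end of the pathway, of 20 tested output genes, 7 were higher and none lower in WT, 1 higher and 5 lower in R117fs, and 14 higher and none lower in G659fs, beside 21.5%, 15.6% and 25.4% of all genes called, with median differences of 0.34, -0.18 and 0.58. Against R117fs, G659fs had 12 higher and none lower, beside 6.35% higher and 8.02% lower over all genes. The list was chosen with results of these libraries known, so it is no independent evidence of a direction. EGR1 was at 5.93, 9.39, 7.50 and 9.09 CPM in GFP, 25.6, 56.7, 42.0 and 48.4 in WT, 5.45, 7.12, 9.02 and 6.73 in R117fs and 50.9, 60.9, 60.0 and 56.2 in G659fs. All WT and G659fs libraries lay above all others, and the log2 differences from GFP were 2.44 ± 0.20, -0.20 ± 0.23 and 2.84 ± 0.20 (edgeR adjusted p = 1.20e-06, 0.603 and 1.12e-07). ETV5 lay between 1.66 and 3.32 CPM in GFP, 3.10 and 6.26 in WT, 0.533 and 1.09 in R117fs, and 7.87 and 10.2 in G659fs. It rose in WT (1.10 ± 0.23) and G659fs (1.82 ± 0.22) and fell in R117fs (-1.84 ± 0.34). ETV4 rose in G659fs (1.41 ± 0.26) and fell in R117fs (-1.43 ± 0.40), with a difference of 0.29 ± 0.29 in WT (edgeR adjusted p = 0.516). SPRY4 rose in WT (1.83 ± 0.30) and G659fs (2.50 ± 0.27), from a very low level. Its mean was 0.384 CPM in GFP, 1.36 in WT, 0.182 in R117fs and 2.16 in G659fs. DUSP6 was at 0.514 to 1.91 CPM and passed the test in none of the comparisons with GFP. With effective lengths as an offset 1 output gene, not 5, was lower in R117fs. Of all 16787 genes 826, not 1438, were lower there.

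**Figure D5:**
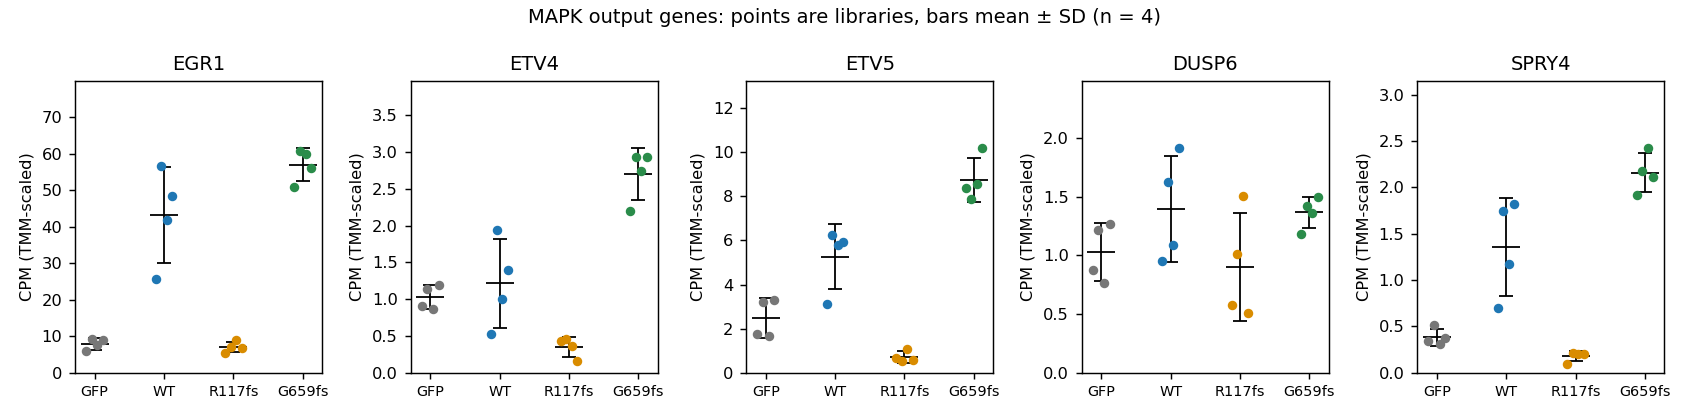
CPM of EGR1, ETV4, ETV5, DUSP6 and SPRY4 in the 4 libraries of each group, with the mean and SD. Every EGR1 point of WT and G659fs, at 25.6 CPM or more, lies above those of GFP and R117fs, and the ETV5 points of R117fs are the lowest.

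EGR1 and SPRY4 were called higher in WT and G659fs and not in R117fs. None of the 10 receptors and ligands had this set of calls: EGFR was called higher in all 3 constructs, AREG in WT and R117fs, and FGFR1 and FGFR2 in G659fs. A missed call does not show that a gene was unchanged: AREG in G659fs against GFP had an edgeR adjusted p of 0.0561. FGFR1 and FGFR2 were not shown to differ between G659fs and WT (edgeR adjusted p = 0.108 and 0.142). Whether any of the 10 genes bears on the output genes was not tested. As a description over the 16 libraries, which share depth and group, each gene was matched to the tested genes whose log2 CPM followed it most closely (Pearson r, RNF43 left out). EGFR was closest to SLC25A37 (r = 0.92), PTGFR and DFFA, ERBB2 to LLGL1 (0.95), ZNF618 and KIF26A, ERBB3 to CASTOR2 (0.93), ATP1B2 and SYPL2, and ERBB4 to MYO9A (0.85), RIF1 and MINDY2. FGFR1 was closest to MYO19 (0.96), SPR and TLE1, FGFR2 to APMAP (0.97), TFDP1 and APLP2, and FGFR3 to ESPL1 (0.91), GTSE1 and ZBED1. HBEGF was closest to ADM (0.93), KIAA1191 and ATP8B3, AREG to DHRS7 (0.93), DNAJB9 (0.91) and ZCRB1, and TGFA to NARS2 (0.85), ATP10D and PLA2G4A. Among the 10 genes themselves the highest r was that of FGFR1 and FGFR2 (0.80), followed by ERBB2 and FGFR1 (0.78) and EGFR and AREG (0.72), and the lowest that of ERBB3 and AREG (-0.57).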

How the data were processed

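RNA came from a Qiagen RNeasy extraction with DNase I and went into NEBNext libraries, per the labels' protocols. The submitters' processing notes name kallisto 0.45.1 and the build GRCh38. The annotation release and strand setting are not given in the sources used here. Each of the deposited files holds an estimated count and a TPM value for each of 178136 transcripts, per the file headers. Of these, 162453 (91.2%) matched GENCODE 29, an annotation that may not be the submitters' own, and the others held 1.90% to 2.22% of counts. Estimated counts were summed per gene and rounded, and TPM summed. Reads of near-identical genes are split by estimation.

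The 16787 genes that passed filterByExpr entered 1 fit of 16 libraries in edgeR 4.0.16 (R 4.3.3) with TMM factors, robust glmQLFit and glmQLFTest, and CPM use the TMM factors. The common biological coefficient of variation was 0.103. The scripts were tested on simulated data. The log2 CPM for correlations used a prior count of 2. Named were the 10 genes, up to 3 called genes per list and comparison by smallest p, EGR1, ETV4, ETV5, DUSP6, SPRY4, ESRP1, ESRP2, the 3 genes most alike to each of the 10, and RNF43. Other examples were chosen after their values were seen. The genes and lists were chosen with earlier results of these data known. Alternatives were DESeq2 1.42.0, other scalings and filters, effective lengths as an offset, GC trend removal, 2 groups alone, a replicate block and leaving out each library. The sequences of the FGFR2 exons are not reported here.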

Additional observations from a re-analysis of the deposited data

Results flagged for a closer look

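ERBB3 differed between constructs when these were tested against each other: by 0.46 on the log2 scale between R117fs and WT and by 0.71 between G659fs and WT, higher than WT in both. FGFR1, FGFR2 and FGFR3 differed between G659fs and R117fs, by 0.31, 0.26 and 0.21, higher in G659fs. No library was an outlier by Dixon's test at its 95% critical value in any of the 40 sets of 4 libraries (10 genes in 4 groups), where chance alone flags about 1 in 20.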

How the results depend on the processing

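Of 1440 values for the 10 genes under alternatives, 1294 kept their direction and side of the threshold, 60 lost a call, 35 gained one, and 51, all uncalled, changed sign. With effective lengths as an offset the log2 differences that changed sign were ERBB2 -0.062 and ERBB4 0.036 in WT against GFP, ERBB2 -0.093, ERBB3 0.013, FGFR1 -0.061 and FGFR2 0.054 in R117fs against GFP, ERBB2 -0.051, ERBB3 -0.083 and ERBB4 -0.059 in G659fs against GFP, EGFR 0.027 in R117fs against WT, EGFR -0.046 and ERBB4 -0.095 in G659fs against WT, and EGFR -0.072 and ERBB3 -0.096 in G659fs against R117fs. Without a low-count filter FGFR2 was 0.0033 in R117fs against GFP. With the GC trend removed ERBB2 was -0.074 and ERBB4 0.046 in R117fs against GFP, ERBB4 0.062 in R117fs against WT and FGFR3 -0.075 in G659fs against WT. Leaving out 1 library at a time, ranges that crossed 0 were ERBB4 -0.12 to 0.059 in WT against GFP; ERBB2 -0.071 to 0.075, ERBB4 -0.17 to 0.052, FGFR1 -0.036 to 0.11 and FGFR2 -0.077 to 0.036 in R117fs against GFP; and ERBB4 -0.0034 to 0.18 in G659fs against GFP. They were ERBB2 -0.11 to 0.036, ERBB4 -0.15 to 0.074 and TGFA -0.060 to 0.17 in R117fs against WT, EGFR -0.0060 to 0.060, FGFR3 -0.0085 to 0.057 and TGFA -0.082 to 0.15 in G659fs against WT, and AREG -0.34 to 0.017 and TGFA -0.10 to 0.043 in G659fs against R117fs. The number of the 10 genes called with effective lengths as an offset was 1, not 3, in R117fs and in G659fs against GFP, 0, not 1, in G659fs against WT, and 0, not 3, in G659fs against R117fs. Of all genes this offset called 10.3%, 19.8%, 2.34% and 10.3% in these comparisons, in the same order. With 2 groups fitted alone the number of the 10 genes called was 0 in R117fs against GFP, 0 in R117fs against WT, 4 in G659fs against WT and 0 in G659fs against R117fs. Of all genes these fits called 3.67%, 0.938%, 28.5% and 4.86%, in the same order. The main fit called 15.6%, 8.11%, 5.68% and 14.4%. Calls of single genes given above as lost in such fits are to be read beside these shares. With the GC trend removed the number of the 10 genes called was 3 in R117fs against WT, 4 in G659fs against WT and 5 in G659fs against R117fs. Calls over all genes rose as well, to 17.4%, 19.3% and 29.1% in the same order. Leaving out 1 library gave 0 (without GFP replicate 4) to 3 in R117fs against GFP, 3 to 4 in G659fs against GFP, 0 to 1 in R117fs against WT, 0 (without G659fs replicate 3) to 3 (without R117fs replicate 4) in G659fs against WT, and 0 (without R117fs replicate 2 or G659fs replicate 2) to 4 in G659fs against R117fs. In the order in which these left-out libraries are named, 8.56%, 0.685%, 20.7%, 11% and 8.19% of all genes were called. The FGFR2 IIIb share minus GFP ran from -0.020 (without WT replicate 3) to 3.78 points in WT. It ran from 2.21 to 11.3 points in R117fs, and from -0.25 to 1.66 points in G659fs. The cause of these changes was not tested.

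Whether the replicate numbers pair the libraries is not settled. Of 24 pairs of the same number, 5 had a correlation of deviations over 0.1. Their median was 0.034, against -0.016 for pairs of different numbers. With the number as a block, 4 of the 10 genes, not 3, were called in G659fs against R117fs, where 16.3% of all genes were called. HBEGF had an edgeR adjusted p of 0.0182 there, and the other 5 comparisons kept their counts. With the replicate block and the GC trend removed together the counts were 3 in R117fs against WT, 4 in G659fs against WT and 5 in G659fs against R117fs. Over all genes 21.9%, 23.6% and 32.9% were called in these comparisons. The differences that changed sign were ERBB2 -0.076, ERBB4 0.068 and FGFR1 -0.00030 in R117fs against GFP, ERBB4 0.081 in R117fs against WT and FGFR3 -0.075 in G659fs against WT. AREG, with 13 to 56 counts per library, is limited by depth.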
